A study of Mus musculus with 8 samples.

Results

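Oxytocin (Oxt), arginine vasopressin (Avp), the oxytocin receptor (Oxtr) and the vasopressin receptor 1a (Avpr1a) were measured in sorted SST neurons of the tuberal nucleus (TN) of the mouse hypothalamus. They are 4 of the 35968 genes to which counts could be assigned, and all 4 had enough counts to enter the comparison of the sexes across 15194 genes. The genes were taken by their symbols and were chosen by a reading of these same counts in which Oxtr already stood out between females and males. The sex difference of each is therefore given as a description, with no test.

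The mice carried 1 Sst-Cre allele (Ssttm2.1(cre)Zjh/J / +), in which Cre is expressed from the Sst locus, and all of them received AAV2-flex-tdTomato in the TN on both sides. Red fluorescence therefore marked cells in which the Sst locus drove Cre between the injection in adult mice and collection, and these cells were dissociated, sorted by flow cytometry and sequenced in bulk. The groups were 4 adult females, which were cycling, and 4 adult males, which were gonad-intact, with 1 library for each mouse. Both sexes carried the same allele and virus, the labels give neither the estrous stage nor an exact age, and p-values given for other genes measure the spread between these mice.

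Oxytocin and vasopressin are close relatives, each a short cyclic peptide cut from a precursor that also holds a carrier protein, neurophysin. In the hypothalamus they are best known from magnocellular neurons of the paraventricular and supraoptic nuclei, which release them into the blood through the posterior pituitary, and vasopressin is also made in the suprachiasmatic nucleus. OXTR and AVPR1A couple to Gq, which activates phospholipase C and raises intracellular calcium, whereas AVPR2 couples to Gs and is best known from the kidney. Oxtr in the ventromedial hypothalamus is a classical estrogen-responsive gene.

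The peptide genes are neighbors on chromosome 2 of mm10 in the GENCODE annotation. Oxt (ENSMUSG00000027301.7, plus strand) runs from 130576173 to 130577054 and Avp (ENSMUSG00000037727.6, minus strand) from 130580620 to 130582554, with 3565 bases between them. The coding bases of the mature peptides, in exon 1 of each gene, are shown because they set the hormones apart. They lie at chr2:130576267-130576293 (plus strand) for Oxt and chr2:130582446-130582472 (minus strand) for Avp, and of 27 bases 22 are identical and 5 differ, the differing bases in capitals:
Oxt: tgctacAtccagaactgcccCCTGggc
Avp: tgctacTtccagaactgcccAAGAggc

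Exon 2 encodes most of neurophysin and is shown because reads from it are hard to assign to a single gene. It lies at chr2:130576591-130576792 (plus strand) for Oxt and chr2:130581056-130581257 (minus strand) for Avp. Over 202 bases the exons were 95.5% identical, with 193 identical bases and 9 different ones, again in capitals, and the longest identical run held 127 bases:
Oxt: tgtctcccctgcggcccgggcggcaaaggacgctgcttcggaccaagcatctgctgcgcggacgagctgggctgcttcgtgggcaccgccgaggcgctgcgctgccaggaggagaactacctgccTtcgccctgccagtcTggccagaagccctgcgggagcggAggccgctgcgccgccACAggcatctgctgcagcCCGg
Avp: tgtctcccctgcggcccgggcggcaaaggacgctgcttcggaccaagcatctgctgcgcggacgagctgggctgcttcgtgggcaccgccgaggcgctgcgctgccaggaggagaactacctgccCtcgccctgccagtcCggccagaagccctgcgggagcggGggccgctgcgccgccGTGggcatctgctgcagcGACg

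Reads were assigned to transcripts through stretches of 31 bases, and 97 such stretches occurred in both the Oxt and the Avp transcript, which is 19.1% of those in Oxt and 17.7% of those in Avp. The share of reads that moved between the genes through these stretches was not tested. Counting all other genes, 108 of the 507 stretches in Oxt (21.3%) were shared, and 13 occurred on the opposite strand of another gene. Those shared by Avp were shared with Oxt only. Because Oxt and Avp ranked high or low together across mice, the 250 bases before the RefSeq start of each gene (GRCm38.p6) were also read. The windows lie at chr2:130575919-130576168 (plus strand) for Oxt and chr2:130582589-130582838 (minus strand) for Avp. Capitals mark the estrogen response half-site GGTCA, or TGACC where it lies on the other strand, in Oxt and the E-box CACGTG in Avp:
Oxt: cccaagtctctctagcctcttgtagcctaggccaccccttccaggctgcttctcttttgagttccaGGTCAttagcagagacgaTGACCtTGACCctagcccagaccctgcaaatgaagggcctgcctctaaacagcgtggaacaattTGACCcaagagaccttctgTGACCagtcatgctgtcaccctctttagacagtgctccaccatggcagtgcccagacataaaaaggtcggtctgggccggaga
Avp: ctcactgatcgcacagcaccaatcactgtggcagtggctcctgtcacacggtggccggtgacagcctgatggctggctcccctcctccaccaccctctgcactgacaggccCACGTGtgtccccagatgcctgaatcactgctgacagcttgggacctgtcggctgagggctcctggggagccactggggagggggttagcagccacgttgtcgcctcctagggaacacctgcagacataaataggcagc

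The Oxt window held 5 half-sites, on both strands and none overlapping another, where 35.2% of the 32851 mouse windows of the same length held at least 1 and 0.0426% held at least as many as Oxt. The Avp window held none of these and 1 E-box, a motif found in 6.02% of windows. The full palindromic estrogen response element, found in 0.0639% of windows, and the cAMP response element TGACGTCA, found in 1.55%, were in neither window. These matches describe the letters only.

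Estimated counts summed to between 7.83 and 17.6 per mouse, in units of 1000000. A single gene, Lars2, chosen after its values were seen, held between 9.34% and 34.4% of them. After TMM scaling (factors from 0.841 to 1.16), counts-per-million values (CPM) describe each gene, and levels of different genes are compared only as transcripts-per-million values (TPM), which also divide by length. A count of 3, taken as the limit of detection, was worth between 0.148 and 0.458 CPM. Sst, which defines the sorted cells, lay between 897.5 and 1883 TPM, ranking between 31 and 62 among the genes of a mouse, whereas its relative Cort reached at most 5 counts.

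By level per length the order was Avp, Oxt, Oxtr, Avpr1a, Avpr2 and Avpr1b. The mean over the 8 mice was 332 TPM for Avp, 38.7 TPM for Oxt, 6.92 TPM for Oxtr, 2.31 TPM for Avpr1a, 1.02 TPM for Avpr2 and 0.0971 TPM for Avpr1b. The first 2 places describe only some of the mice, since Avp ran from 0.349 to 941 TPM and Oxt from 0 to 151 TPM, so that neither differed from its neighbors beyond its spread. Oxtr stood above Avpr1a in every female, at 11.2 ± 3.90 TPM against 2.45 ± 0.809 TPM (SD, n = 4). In males the pair overlapped, at 2.61 ± 0.268 TPM for Oxtr and 2.16 ± 0.513 TPM for Avpr1a (SD, n = 4).

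**Figure D1:**
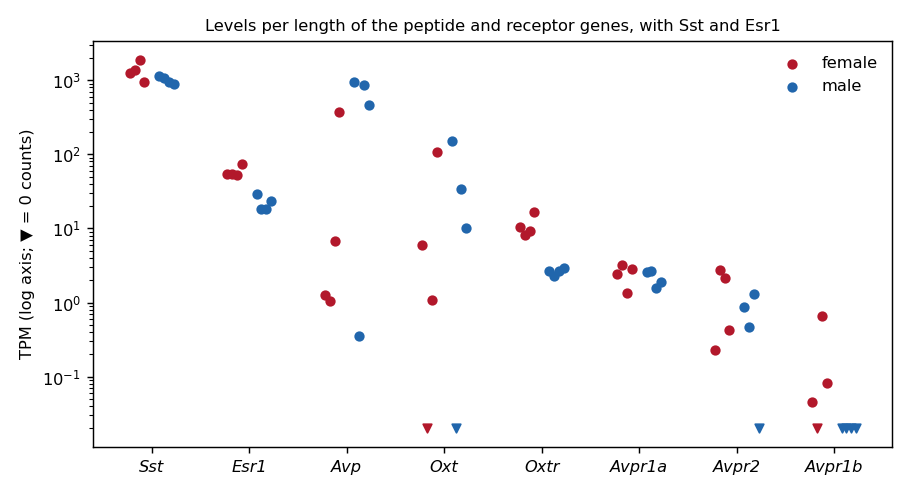
TPM of the peptide and receptor genes, with Sst and Esr1, in each of 4 females and 4 males on a log axis, with triangles for a count of 0. Avp spread from 0.349 to 941 TPM, while Sst stayed between 897.5 and 1883 TPM in the same mice.

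Avp, the vasopressin precursor, was abundant in some mice and close to absent in others of the same sex. In females 1 to 4 it lay at 0.222, 0.305, 1.38 and 83.4 CPM, from 2, 2, 28 and 927 counts. In males 1 to 4 it lay at 220.7, 0.0916, 201.5 and 114.6 CPM, from 2711, 1, 2255 and 910 counts. Female 4 and males 1, 3 and 4 were high, and females 1 and 2 and male 2 were at or below the limit of detection, so the sexes overlapped.

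Between the highest and the lowest mouse, both male, Avp differed 2409-fold, with an exact 95% counting interval from 432-fold to 95170-fold, since the lower value rests on 1 count. Such intervals cover counting error only. As a share of Sst in the same mouse, Avp amounted to 91.9% in male 3, 82.6% in male 1, 51.8% in male 4 and 38.9% in female 4 on the TPM scale, against 0.0325% in male 2. In male 3, where its rank was highest, Avp was the gene ranked 63 by TPM.

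Oxt, the oxytocin precursor, was lower than Avp in every mouse in which either was abundant. In females 1 to 4 it lay at 1.33, 0, 0.197 and 21.9 CPM, from 12, 0, 4 and 243 counts. In males 1 to 4 it lay at 32.2, 0, 7.06 and 2.27 CPM, from 395, 0, 79 and 18 counts. Female 4 and male 1 were high and the sexes overlapped.

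The counts of 0 allowed up to 0.458 CPM of Oxt in female 2 and up to 0.275 CPM in male 2. Against the first of these limits Oxt was at least 70.2-fold higher in male 1. Female 1 was the only mouse with more Oxt than Avp counts, 12 against 2.

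The balance of the peptides differed between mice. Of the Avp and Oxt counts together, Avp made up 79.2% in female 4 (95% Wilson interval 76.8% to 81.5%), 87.3% in male 1 (86.1% to 88.4%), 96.6% in male 3 (95.8% to 97.3%) and 98.1% in male 4 (97.0% to 98.8%). On the TPM scale the ratio of Avp to Oxt was 3.43 in female 4, 6.23 in male 1, 26.0 in male 3 and 45.4 in male 4. The intervals of female 4 and male 1 lay below those of males 3 and 4 and did not overlap them. In female 3, with 32 counts, the share was 87.5% (71.9% to 95.03%), and the other mice had fewer than 20 counts of both genes.

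**Figure D2:**
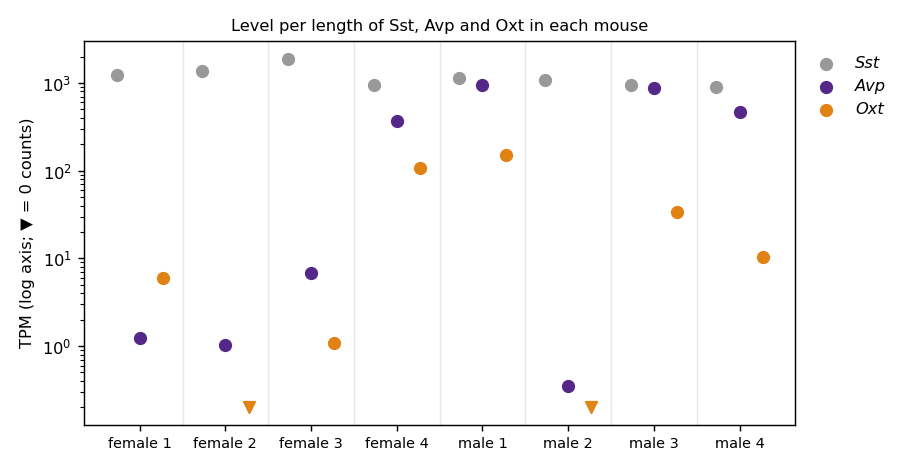
TPM of Sst, Avp and Oxt in each mouse on a log axis, with triangles for a count of 0. Avp came close to Sst in males 1 and 3, at 82.6% and 91.9% of its level, and was at 0.0325% of it in male 2.

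The fitted log2 fold change of females against males was -2.64 ± 1.64 (standard error, 4 against 4) for Avp and -0.82 ± 1.53 for Oxt. The size of both depended on single mice, and for Oxt so did the sign. Avp stayed below 0 with any 1 mouse left out, from -7.34 to -2.23. Without female 4 the values were -7.34 for Avp and -4.38 for Oxt, and without male 1 Oxt turned to 0.91.

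Markers of the nuclei that make these peptides were compared with them mouse by mouse. The summed TPM of 7 paraventricular and supraoptic markers was 339, 281, 369 and 328 in females 1 to 4. In males 1 to 4 the sum was 361, 239, 290 and 217. Female 3, low in Avp, had the highest sum and male 4, high in Avp, the lowest. Most of that sum came from Otp, at 96.3 to 235 TPM, and Arnt2, at 104 to 173 TPM, which are transcription factors needed for these nuclei, and the next highest was Caprin2, at 4.61 to 13.1 TPM. Crh, which defines another paraventricular cell type, was at 0 counts in 6 of 8 mice.

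Sim1, a transcription factor required for paraventricular and supraoptic neurons and singled out after its values were seen, lay at 1.67, 0.458, 0.296 and 3.69 CPM in females 1 to 4. It lay at 10.02, 2.29, 6.35 and 3.65 CPM in males 1 to 4. On the CPM scale the 4 mice highest in Avp were also the 4 highest in Sim1, Pou3f2 and Caprin2. This did not hold for Otp, Arnt2, Trh or Crh. Pou3f2, another transcription factor of these nuclei, lay at 11.5, 12.2, 6.41 and 15.8 CPM in females 1 to 4 and at 21.3, 9.07, 18.1 and 17.9 CPM in the males in the same order. Caprin2 was closer together, between 8.86 CPM in female 2 and 16.04 CPM in male 1. On the TPM scale Caprin2 ran from 7.94 to 10.2 in females. In males it ran from 4.61 to 13.1 TPM with a mean of 7.57 TPM. By TPM, therefore, the 4 mice highest in Avp were not the 4 highest in Caprin2. Otp was highest in female 3, at 297 CPM, and lowest in male 4, at 148 CPM, and Trh ran from 10.2 CPM in female 4 to 1.76 CPM in male 4, with 9.32 CPM in female 2. The sexes overlapped, in Sim1, and it did not pass the test between them (log2 fold change -1.87 ± 0.75, adjusted p = 0.218, edgeR).

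The 5 suprachiasmatic markers summed to between 13.0 and 20.8 TPM in females and between 9.64 and 20.9 TPM in males. Six6 led them at 6.44 to 17.6 TPM, followed by Prok2 at 0.650 to 6.85 TPM and Lhx1 at 0.277 to 1.37 TPM. The defining peptide Nms reached at most 3 counts, and Vip at most 15 counts, in male 3. The melanin-concentrating hormone gene Pmch, a marker of the lateral hypothalamus, stood at 40.8 TPM in female 4 and at most 1.25 TPM in any other mouse, while Hcrt stayed at or below 5.01 TPM. The part of other hypothalamic cells in the Avp and Oxt values was not tested, and in bulk samples fewer cells of a type and less RNA per cell cannot be told apart.

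Oxtr (ENSMUSG00000049112.9, chromosome 6, 112473683 to 112489943, minus strand), the receptor for oxytocin, was higher in every female than in any male. In females 1 to 4 it lay at 26.5, 20.8, 21.4 and 39.0 CPM, from 239, 136, 433 and 434 counts. In males 1 to 4 it lay at 6.03, 6.05, 6.17 and 6.55 CPM, from 74, 66, 69 and 52 counts. The lowest female stood 3.17-fold above the highest male.

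The female mean was 26.9 ± 8.48 CPM and the male mean 6.20 ± 0.242 CPM (SD over 4 mice of each sex), and the fitted log2 fold change was 2.12 ± 0.22 (standard error). It was one of 17 genes called higher in females, 0.112% of those tested, and this call is part of what led to its choice. Over the alternatives that leave out 1 mouse, the value ran from 1.88 to 2.22. The females spread more than counting error gives, with an SD of 8.48 CPM against 1.65 CPM from counting alone. In males the SD of 0.242 CPM was below the 0.776 CPM from counting alone, so the differences between males were not detectable at this depth.

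**Figure D3:**
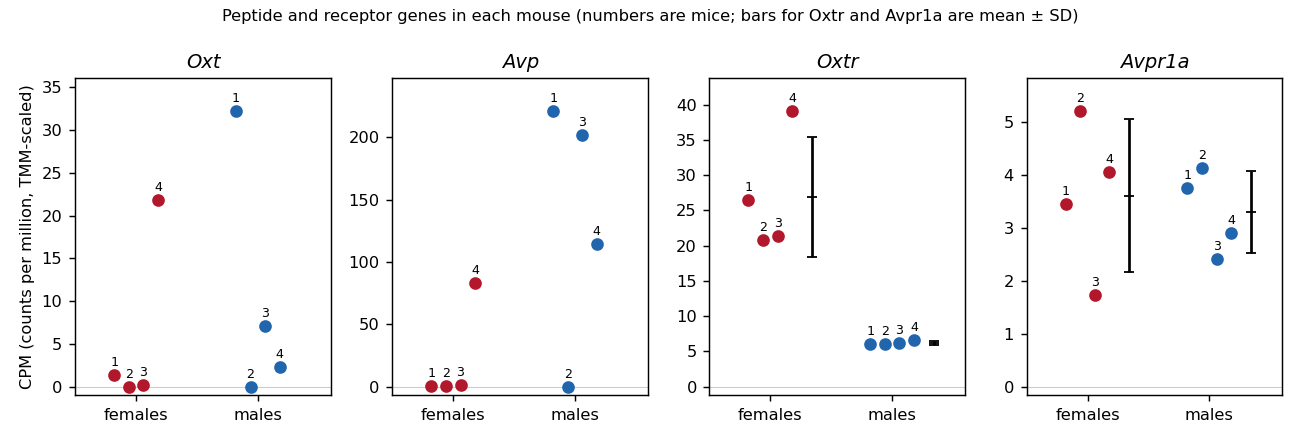
CPM of Oxt, Avp, Oxtr and Avpr1a in each mouse, with points numbered by mouse and, for Oxtr and Avpr1a, the mean ± SD of 4 mice. Oxtr lay between 20.8 and 39.0 CPM in females and between 6.03 and 6.55 CPM in males, while the sexes overlapped for the other genes.

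Oxtr has a full-length transcript, Oxtr-201, and a shorter one, Oxtr-202, that starts in another first exon and is annotated as coding only in the last one. The last exon is common to both, so most of their sequence is shared. In females 1 to 4, 71.3%, 60.7%, 94.0% and 60.5% of the Oxtr counts were assigned to Oxtr-201. In males 1 to 4 the shares were 12.4%, 80.2%, 33.6% and 17.6%. Male 2 lay above 3 of the females, so the shares overlapped between the sexes. The values of each mouse came in 2 blocks, and the share differed between the blocks of a mouse by 3.14 to 41.7 percentage points. The summed Oxtr counts do not depend on this split. They differed between blocks 1 and 2 in male 1 (56.0 and 18.2) and male 3 (48.2 and 20.4). Block 1 was the deeper in both, at 6.79 against 5.20 in male 1 and 6.16 against 4.71 in male 3 (counts in units of 1000000). These depths differed by a smaller factor than the Oxtr counts did, and the cause was not tested. In male 2 (31.6 and 34.9) and male 4 (28.5 and 23.9) the Oxtr counts of the blocks were closer.

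Levels of other cells' markers are given beside those of Oxtr. The summed TPM of 9 ventromedial nucleus markers was 341, 343, 389 and 550 in females 1 to 4. It was 211, 156, 205 and 302 in males 1 to 4, without overlap. Its leading genes were Gda, at 101 to 183 TPM in females and 51.9 to 84.2 TPM in males, the glutamate transporter gene Slc17a6, at 100 to 152 TPM and 50.2 to 95.3 TPM, and Adcyap1, at 36.6 to 137 TPM and 19.9 to 67.1 TPM. Of the 9, 7 had fitted values above 0 in females against males, and the median was 0.69, beside -0.004 over all genes tested. The defining marker Nr5a1 (-0.44 ± 0.59) and Fezf2 (-1.11 ± 1.07, from 0 to 21 counts) had values below 0, and both overlapped between the sexes. Fezf1 (1.92 ± 0.65) and Nkx2-1 (0.83 ± 0.20) were among those above 0, and in both every female lay above every male. None of the 9 passed the edgeR test (0.158% of all genes tested did), 3 had an unadjusted p under 0.05 (20.5% of all genes), DESeq2 called 2 (6.92% of all genes) and in 3 the sexes did not overlap (10.4% of all genes). With the mean of these markers as a covariate, the log2 fold change of Oxtr was 1.88. With the mean of the paraventricular and supraoptic markers instead, the log2 fold change of Oxtr was 2.23.

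The 5 pan-neuronal markers, led by Snap25, Syt1 and Tubb3, summed to between 1423 and 2037 TPM in females and between 1035 and 1317 TPM in males, also without overlap. Their median log2 fold change was 0.48, none passed the edgeR test, 3 of 5 had an unadjusted p under 0.05, against 20.5% of all genes, and DESeq2 called 3 of 5, against 6.92%. The 5 microglia markers, led by C1qa, Csf1r and Cx3cr1, ran from 180 to 1048 TPM in females and from 390 to 1889 TPM in males, and the 6 astrocyte markers, led by Aldoc, Slc1a3 and Slc1a2, from 268 to 559 TPM and from 502 to 688 TPM. The 5 oligodendrocyte markers, among them Mbp and Mobp, ran from 312 to 1495 TPM and from 526 to 1333 TPM. All of these glial sums overlapped between the sexes. Every gene of the microglia, astrocyte and oligodendrocyte lists had a fitted value below 0 in females against males, with medians of -1.22, -0.59 and -0.72. None passed the edgeR or the DESeq2 test, while 3 of 5 microglia, 1 of 6 astrocyte and 1 of 5 oligodendrocyte genes had an unadjusted p under 0.05, against 20.5% of all genes. The part of cell makeup in the Oxtr values was not tested. The summed ventromedial markers did not overlap between the sexes, so the fit with their mean as a covariate cannot tell cell makeup from sex.

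The genes whose log2 CPM followed Oxtr most closely over the 8 mice, among 10018 genes with a mean of at least 10 CPM, were Esr1 (Pearson r = 0.97), Zfp668 (0.96), Adrb1 (0.96), Nos1 (0.96) and Kcnq5 (0.96). These values describe the 8 points only, which fall into the sexes and share their libraries. Esr1, which encodes estrogen receptor alpha, lay at 122, 124, 96.8 and 159 CPM in females 1 to 4. Males 1 to 4 had 59.4, 45.3, 42.0 and 51.8 CPM. Female 4 was the highest mouse for both genes. Its log2 fold change was 1.34 ± 0.16, smaller than that of Oxtr, with an adjusted p of 0.0167 (edgeR). DESeq2, which called 6.92% of all genes, gave 1.34 with an adjusted p of 4.54e-12. The edgeR fold stayed close to its main value where the edgeR call was lost. It was 1.34 without female 2 (adjusted p = 0.0610), 1.29 without male 2 (0.0727), 1.26 without male 3 (0.0839), 1.36 without male 4 (0.0674) and 1.17 with the ventromedial covariate (0.122).

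**Figure D4:**
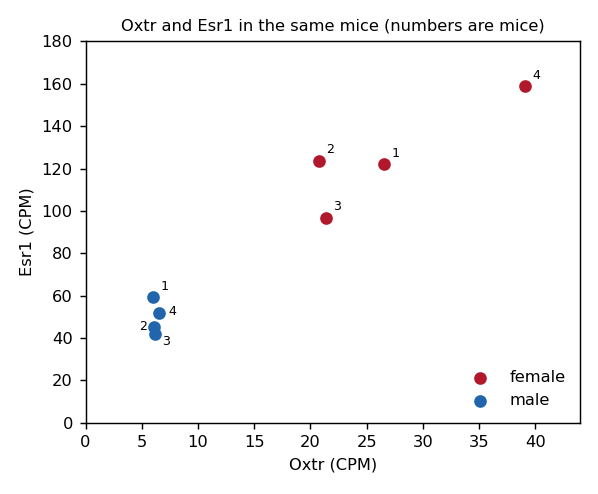
CPM of Oxtr (horizontal axis) against CPM of Esr1 (vertical axis), with 1 point per mouse numbered within its sex. The females lay at or above 20.8 CPM of Oxtr and 96.8 CPM of Esr1, and the males at or below 6.55 and 59.4 CPM.

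Because these genes were picked for following Oxtr, which separates the sexes, their own separation is part of the choice and supports nothing. Kcnq5, a potassium channel gene, ran from 96.9 to 163 CPM in females and from 26.7 to 39.98 CPM in males. Adrb1, the beta-1 adrenergic receptor gene, ran from 22.9 to 28.6 CPM and from 12.2 to 14.8 CPM. Nos1, the neuronal nitric oxide synthase gene, ran from 122 to 163 CPM and from 74.8 to 98.2 CPM.

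Avpr1a (ENSMUSG00000020123.6, chromosome 10, 122448499 to 122453452, plus strand), the vasopressin receptor of the brain and of vascular smooth muscle, was low in both sexes. In females 1 to 4 it lay at 3.44, 5.19, 1.73 and 4.05 CPM, from 31, 34, 35 and 45 counts. In males 1 to 4 it lay at 3.75, 4.12, 2.41 and 2.90 CPM, from 46, 45, 27 and 23 counts. The sexes overlapped, and female 2 was the highest and female 3, the most deeply sequenced mouse, the lowest.

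The female mean was 3.603 ± 1.45 CPM and the male mean 3.29 ± 0.780 CPM (SD over 4 mice of each sex), with a log2 fold change of 0.10 ± 0.37. The sign turned without female 2 (-0.12) and without male 3 (-0.02). None of its 2640 stretches of 31 bases occurred in another gene, and its counts were whole numbers. It lies inside the antisense gene Gm48877, and reads of that gene's introns over it cannot be told apart from its own where strand was not used. In contrast to Avp, it was detected in every mouse, including the 3 mice with at most 2 counts of Avp.

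The other vasopressin receptors were at the edge of detection and could not be tested. Avpr2 had 2, 4, 11 and 7 counts in females 1 to 4. Males 1 to 4 had 2, 1, 4 and 0 counts. Most of its sequence also occurs on the opposite strand in its neighbor Arhgap4, so its counts are uncertain. Avpr1b, known from pituitary corticotrophs and hippocampal area CA2, had 1, 0, 3 and 2 counts in females and 0 in every male.

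The genes with a pattern most like Avp were Rala (r = 0.96), Maz (0.94), Ppia (0.94), Col23a1 (0.92) and Ptges3-ps (0.91), and those most like Oxt were Ranbp3 (0.91), Rala (0.90), Tox (0.88), Col23a1 (0.88) and Maz (0.88). Rala, Maz and Col23a1 are in both groups of 5. Their ranges were narrow for the most part, with Rala between 52.1 and 59.1 CPM and Maz between 51.8 and 57.2 CPM, whereas Col23a1, a tanycyte marker, ran from 8.99 to 30.6 CPM. Those most like Avpr1a were Mrps12 (r = 0.94), Aldh2 (0.92), Grcc10 (0.90), Prps1l3 (0.90) and Ndufs5 (0.90).

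The machinery around the peptides and receptors was read from 41 other genes, of which 39 could be tested. None was called between the sexes by edgeR (0.158% of all genes tested were). At an unadjusted p under 0.05, 11 of the 39 differed (28.2%), against 20.5% of all genes, and DESeq2 called 6 (15.4%), against 6.92%. The sexes did not overlap in 7 of the 39 (17.9%), against 10.4% of all genes. The median log2 fold change was 0.07, beside -0.004 over all genes tested.

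Precursor processing held 8 genes, all tested. The closest to the threshold were the prohormone convertases that cut peptide precursors. Pcsk2 was at 210 ± 24.5 CPM among females and 137 ± 13.5 CPM among males (SD, n = 4, log2 fold change 0.61 ± 0.11, adjusted p = 0.0655, edgeR). Pcsk1 lay the other way, at 41.6 ± 3.50 CPM and 60.0 ± 12.1 CPM (-0.53 ± 0.14, adjusted p = 0.113). DESeq2 called both, and neither overlapped between the sexes. These were the only 2 of the 8 in either respect, against 6.92% of all genes called by DESeq2 and 10.4% without overlap. Pcsk1n, which encodes an inhibitor of PCSK1, was at 787 ± 118 CPM and 878 ± 145 CPM. Without female 1 and without male 1, edgeR called 1 of the 8. Both fits also called far more genes in all, against 17 higher in females and 7 higher in males with all mice. Without female 1 these were 217 and 198, and without male 1 they were 227 and 184. The median of the list was 0.004.

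Peptide release and breakdown held 5 genes, all overlapping between the sexes, with 0 called by edgeR, by DESeq2 or at an unadjusted p under 0.05. Cd38, an enzyme needed for oxytocin release, was at 4.75 ± 1.48 CPM among females and 5.93 ± 1.73 CPM among males (SD, n = 4). Lnpep, which encodes the aminopeptidase that degrades oxytocin and vasopressin, was at 173 ± 18.1 CPM and 178 ± 11.1 CPM. Npepps, another aminopeptidase gene, was at 113 ± 8.77 CPM and 109 ± 8.38 CPM. The list had a median log2 fold change of -0.04.

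Gq signaling, downstream of OXTR and AVPR1A, held 20 genes, of which 16 had fitted values above 0 in females against males. None was called by edgeR, whereas 8 of 20 had an unadjusted p under 0.05, against 20.5% of all genes. DESeq2 called 4 of 20, against 6.92% of all genes, and all of these had higher values in females. In 5 of 20 the sexes did not overlap, against 10.4% of all genes. Rgs2, a regulator that shortens Gq signals, was at 124 ± 10.3 CPM among females and 99.7 ± 5.30 CPM among males (SD, n = 4, log2 fold change 0.32 ± 0.08, adjusted p = 0.105, edgeR). Plcb1, the phospholipase C isoform that Gq activates in forebrain neurons, was at 158 ± 36.1 CPM and 98.5 ± 18.7 CPM (0.68 ± 0.18, adjusted p = 0.106). Neither overlapped between the sexes. Among the genes with values below 0 were Plcb2 (-1.15 ± 0.52), Plcb3 (-0.78 ± 0.39) and Itpr2 (-0.78 ± 0.39), all overlapping between the sexes. The list had a median of 0.20, and its summed level ran from 2135 to 2729 TPM in females and from 1808 to 2038 TPM in males, the same direction as the pan-neuronal markers.

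Receptor regulation held 6 genes for the arrestins and kinases that silence active receptors. None was called by either tool, and 1 of 6 had an unadjusted p under 0.05, against 20.5% of all genes. This was Arrb2, at 42.3 ± 4.46 CPM among females and 58.4 ± 13.9 CPM among males (SD, n = 4, log2 fold change -0.46 ± 0.17, adjusted p = 0.185, edgeR). Grk2 was at 123 ± 7.65 CPM and 135 ± 12.1 CPM and Arrb1 at 106 ± 14.96 CPM and 97.5 ± 9.51 CPM. The list had a median of 0.05.

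**Figure D5:**
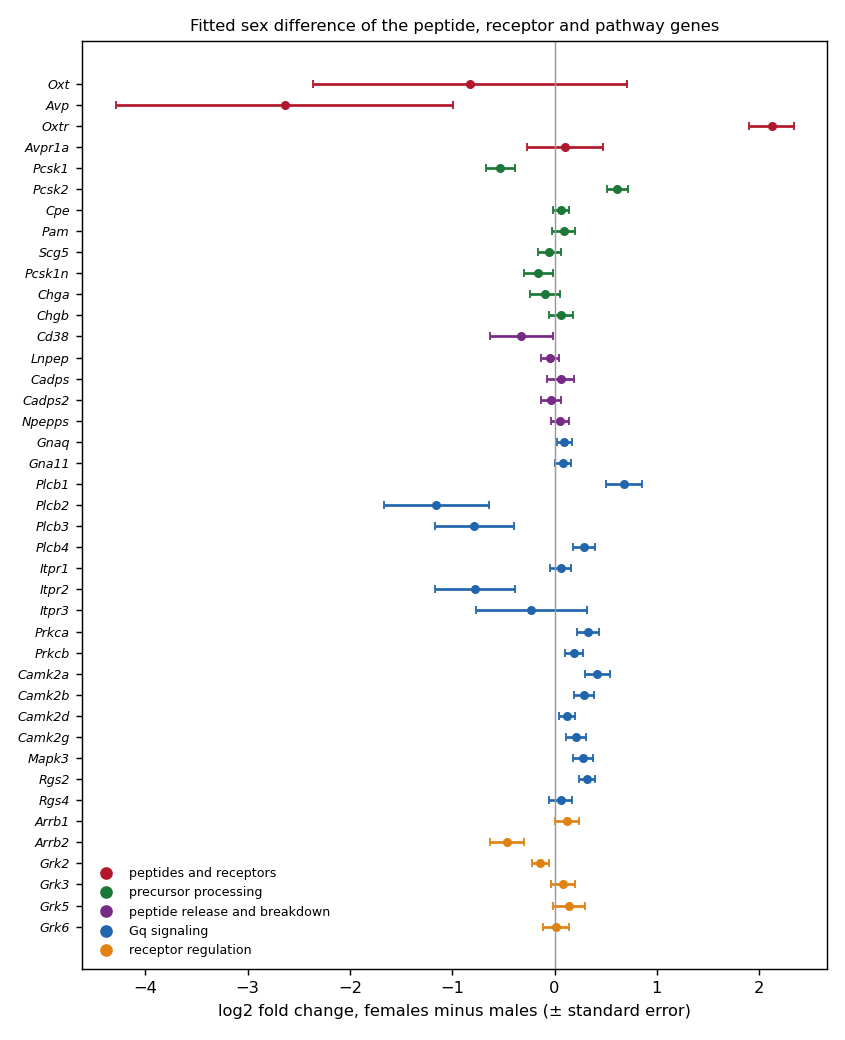
Fitted log2 fold change of females against males (horizontal axis) with its standard error for the 4 peptide and receptor genes and 37 of the tested pathway genes, colored by list. Oxtr lay at 2.12, Avp and Oxt had standard errors of 1.64 and 1.53, and the pathway genes lay between -1.15 and 0.68.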

How the data were processed

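RNA of sorted tdTomato-labeled TN SST neurons from 4 female and 4 male mice was sequenced by the authors, each mouse giving a single library. Reads were assigned by the authors to mm10 transcripts with kallisto 0.46.2, and the authors deposited estimated counts per transcript, not normalized, together with TPM values and transcript lengths. The strand setting was not given in the sources used here. Each mouse came in 2 blocks of the same transcripts, what the blocks are was not stated, and their counts were summed and their TPM averaged. Since blocks were summed, TPM in a deposited file adds up over both.

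Of 118489 transcripts, 116728 matched GENCODE M21, giving 35968 genes. Unmatched transcripts held 0.429% to 0.611% of a mouse's counts. Gene counts were rounded and compared in R 4.3.3 with edgeR 4.0.16 (TMM, default filter on low counts, quasi-likelihood test, adjusted by Benjamini-Hochberg, called under 0.05, sex as the only term), checked on simulated counts. Log2 CPM had a prior count of 2. Alternatives were DESeq2 1.42.0, other normalizations and filters, each block alone, a replicate block, without the largest gene, marker means as covariates, TPM recomputed from summed counts, and leaving out each mouse. Sequences were read from the mm10 genome and RefSeq windows (Python 3.11.15, pandas 2.3.3, numpy 2.4.6, scipy 1.17.1, matplotlib 3.10.9).

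The 4 genes and all lists were chosen with earlier results of these data known. Named beside them were the other receptors, Sst, Cort and Esr1, up to 3 genes with the smallest adjusted p in each pathway list, up to 3 with the highest mean TPM in each marker list, and the 5 most similar genes for each of the 4. Sim1, Lars2, Crh, Vip, Nms, Pou3f2, Trh, Nr5a1, Fezf2 and Camk2d were named after their values were seen. Some genes that these rules name are not reported here. Arcuate, endothelial and tanycyte markers are given in the closing section.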

Additional observations from a re-analysis of the deposited data

Results flagged for a closer look

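In a group of 4 mice, the gap between the highest or lowest mouse and its neighbor was set against the whole range of the group, and 9 of 210 groups examined exceeded Dixon's 95% critical value. Chance gives about 1 in 20. Among the peptide and receptor genes this concerned the log2 CPM of Avp in males (0.902), where male 2 lay below the other 3. Female 4 lay apart at the top for Rala (0.833), Maz (0.908) and Camk2d (0.918), and also for the summed lateral hypothalamus markers (0.881), which rest on Pmch. Rala and Maz were named for following Avp, in which female 4 was the highest female, so their flags are part of that choice. Female 3 was the highest female for Npepps (0.892). Male 4 was the lowest male for Lnpep (0.940), and male 2 the highest male for Aldh2 (0.845) and the lowest for Fezf2 (0.843). Aldh2 was likewise named for following Avpr1a, in which male 2 was the highest male.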

How the results depend on the processing

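Oxtr was higher in females under every alternative run, with log2 fold changes from 1.88 to 2.39. The number of genes called depended most on the test and on single mice. DESeq2 called 586 genes higher in females and 466 higher in males, against 17 and 7 with edgeR, and in the lists it called 2 of 8 processing genes and 4 of 20 Gq genes where edgeR called 0. The same 15194 genes entered both tests. DESeq2 gave no adjusted p to some genes with low counts, among them Fezf2, Prok2 and Lhx1. In the DESeq2 shares such genes count as tested and not called. Leaving out 1 mouse gave 5 to 227 genes higher in females, 3 to 198 higher in males, and 0 to 1 processing genes. Over the same fits Avp ran from -7.34 to -2.23 and Oxt from -4.38 to 0.91. With the ventromedial marker mean as a covariate, 7 genes were called higher in females, Oxt moved to -4.51 and Avp to -7.66. With the paraventricular and supraoptic marker mean, 7 genes were called higher in females and Oxt turned to 0.50. On block 1 alone Oxt had too few counts to be tested and Avpr1a was at -0.007. The causes were not tested. TPM recomputed from summed counts changed the mean level of none of the 4 genes by more than 1 SD.

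Females and males share replicate numbers, and the labels do not say whether same-numbered mice belong together. Correlations of deviations ran from -0.396 to 0.0719 between same-numbered mice and from -0.268 to 0.416 between differently numbered mice. These ranges overlap and rest on few mice of each sex, so they cannot show whether the numbers pair the mice. With the number as a replicate block, 0 genes were called higher in females and 1 higher in males, with log2 fold changes of 2.07 for Oxtr, -2.62 for Oxt, -5.24 for Avp and 0.05 for Avpr1a, and an adjusted p of 0.0683 for Esr1. Counts of 3 or fewer in some mice limit what can be said of Oxt, Avp, Avpr1b and Avpr2 there.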

Other observations

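The remaining marker lists were also read in each mouse. Of the arcuate genes, Npy ran from 93.4 to 688 TPM in females and from 481 to 1091 TPM in males, Pomc from 45.5 to 149 TPM and from 131 to 261 TPM, and Cartpt from 103 to 163 TPM and from 114 to 182 TPM. Female 4, high in Avp, had the lowest arcuate sum, 417 TPM, and male 1, also high in Avp, the highest, 1787 TPM. The inhibitory neuron genes Gad1 and Gad2 lay at 177 to 324 TPM and 96.5 to 178 TPM over all mice. Endothelial markers, led by Pecam1, Flt1 and Cldn5, summed to between 14.9 and 47.5 TPM, and ependymal and tanycyte markers, led by Col23a1, Ccdc153 and Foxj1, to between 9.09 and 27.8 TPM. No gene of these lists passed the edgeR test between the sexes, while 4 of the 7 arcuate genes had an unadjusted p under 0.05, against 20.5% of all genes, 1 of them with a higher value in females and 3 with a lower one, and DESeq2 called 1, against 6.92% of all genes.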
